A study of Ptychidio jordani with 7 samples.

Results

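Ptychidio jordani, the ratmouth barbel, is a cyprinid fish, and its tissues express many genes for membrane carriers of sugars, organic acids, bile acids, fatty acids, nucleosides and other organic solutes. The carriers described here were the genes whose symbol in the deposited table belongs to the solute carrier families SLC2, SLC5, SLC10, SLC13, SLC14, SLC16, SLC22, SLC23, SLC27, SLC28, SLC29 or SLCO. The rule used the symbol alone and no measured value. It found 123 of the 26107 genes in the table, under 71 symbols, and 106 of them reached 1 in at least 1 library in the unit of the table, FPKM (fragments per kilobase of transcript, relative to all mapped fragments). RNA was sequenced from kidney, gill, heart, muscle, caudal fin, liver and spleen, with 1 sample of normal tissue each, to accompany a genome assembly of the species. The labels give no age, sex, strain or number of fish. Each tissue has 1 sample, so differences lack a check between replicates and are given without p-values, and the depth of the libraries is unknown.

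Cells use these carriers to move water-soluble fuels and waste across membranes. Facilitative hexose carriers (SLC2) let sugar follow its gradient, whereas SLC5 carriers use the sodium gradient to take up sugars, inositol, vitamins and lactate. Monocarboxylate carriers (SLC16) move lactate and pyruvate with protons, and some carry thyroid hormone. The SLC22, SLC13 and SLCO families handle organic anions and cations, citrate, sulfate and hormone conjugates, and are best known from the proximal tubule of the kidney and from hepatocytes. SLC27 proteins activate and retain fatty acids, some SLC10 proteins take up bile acids, SLC14 proteins conduct urea, SLC23 proteins carry ascorbate, and SLC28 and SLC29 proteins carry nucleosides.

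Marker genes of each tissue were checked first. Of the detected markers, 12 of 15 for heart were highest in heart, 12 of 12 for muscle in muscle, 6 of 12 for kidney tubule in kidney, 4 of 7 for gill in gill and 5 of 7 for fin in fin. Of 21 liver markers, 1 was highest in liver, 10 in the sample labelled spleen and 10 in muscle, of which 9 were copies of A2m and 1 was apoa1. Of 9 detected spleen markers 0 were highest in the sample labelled spleen. The spleen marker TLX1 was not among these 9, as it reached at most 0.22 in any library. The liver fatty acid binding protein gene fabp10a (Pjo15882) was 11909 in the sample labelled spleen and 7228 in liver. That sample is therefore called the library labelled spleen throughout. Of 11 detected blood markers, 8 were highest in kidney, with a summed FPKM of 137339 in kidney, 60362 in heart, 18717 in gill and 1042 to 5634 in the rest. Of 45 egg markers, 44 were highest in muscle and 1 in kidney, with sums of 78183 in muscle, 44327 in kidney, 8919 in fin, 2381 in heart, 616 in liver and 39.7 in gill, and 4023 in the library labelled spleen. FPKM values are relative to the rest of their library, and the log2 factors that would bring the libraries to a common median were -1.85 in liver and -0.31 in heart, against 0.67 in gill, 0.69 in muscle, 0.80 in fin and 1.09 in kidney, and -1.09 in the library labelled spleen. Division by these factors, called scaling below, raises the values of liver and lowers those of kidney. With it, 8 of the 11 detected blood markers were highest in heart and 0 in kidney.

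Before scaling, the kidney library carried more of these genes at their highest level than any other. Of 106 detected carriers, 40 (37.7%) were highest in kidney, against 17% of all 21151 detected genes. Another 23 were highest in the library labelled spleen (21.7%, against 4.45% of all genes) and 3 in liver (2.83%, against 1.5%). Heart held 10, close to the background of 9.96%. The remaining counts were below their own backgrounds, with 13 in gill (background 23.2%), 9 in fin (18.4%) and 8 in muscle (25.6%). After scaling, 26 were highest in kidney, where 3.47% of all genes were, and 36 in liver or the library labelled spleen, where 19.7% were, against 26 and 5.95% before scaling. Liver alone then held 35 (background 18.8%), more than kidney. Heart then held 17 (background 17.8%), muscle 10 (29.1%) and gill 10 (18%). In bulk tissue, fewer cells of a type and less RNA per cell cannot be told apart.

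**Figure D1:**
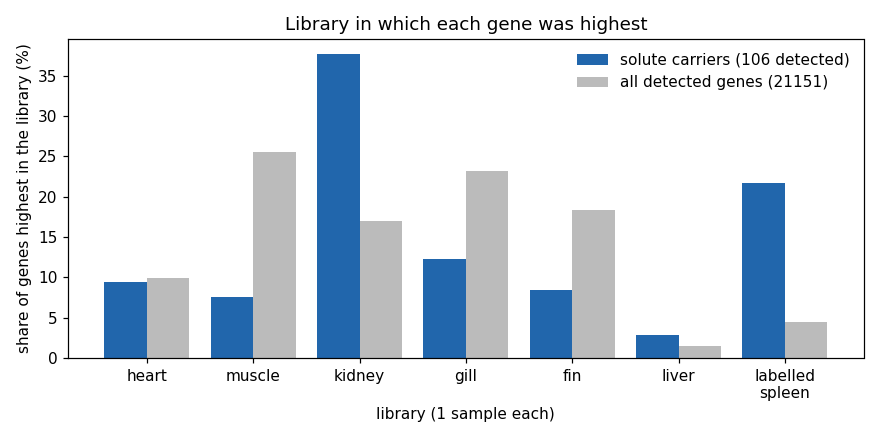
Share of genes, in percent, whose highest FPKM was in each library, for the 106 detected carriers (blue, left) and all 21151 detected genes (grey, right). Kidney held 37.7% of the carriers and 17% of all genes, and muscle 7.55% and 25.6%.

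Few carriers were spread evenly over the tissues. Of the 106, 11 (10.4%) reached 1 in all 7 libraries, against 31.8% of all detected genes, and 28 (26.4%) had a specificity index tau of at least 0.85, against 11.3%. Tau runs between 0 for equal levels and 1 for a single library, on log2(FPKM + 1). The 11 include SLC16A1 (Pjo09018), slc23a2 (Pjo08878) and SLC29A1 (Pjo12146). Of the 123 carriers, 79 were detected in kidney (64.2%), which was near the share of all 26107 genes (61.3%). The counts in the other libraries were 54 in fin (background 64.4%), 52 in gill (62.1%), 51 in muscle (55.6%), 37 in liver (33.8%), 37 in heart (48.4%) and 42 in the library labelled spleen (42.2%). An FPKM of at least 10 in some library was reached by 52 (49.1% of those detected, against 57.5% of all genes). The sum over all carriers was 2567 in the library labelled spleen, of which a single SLC27A2 copy held 55.5%, and 2032 in liver, of which it held about as much. It was 983 in kidney, 821 in gill, 808 in heart, 406 in fin and 387 in muscle. In kidney the most abundant carrier held 11.8% of the sum.

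**Figure D2:**
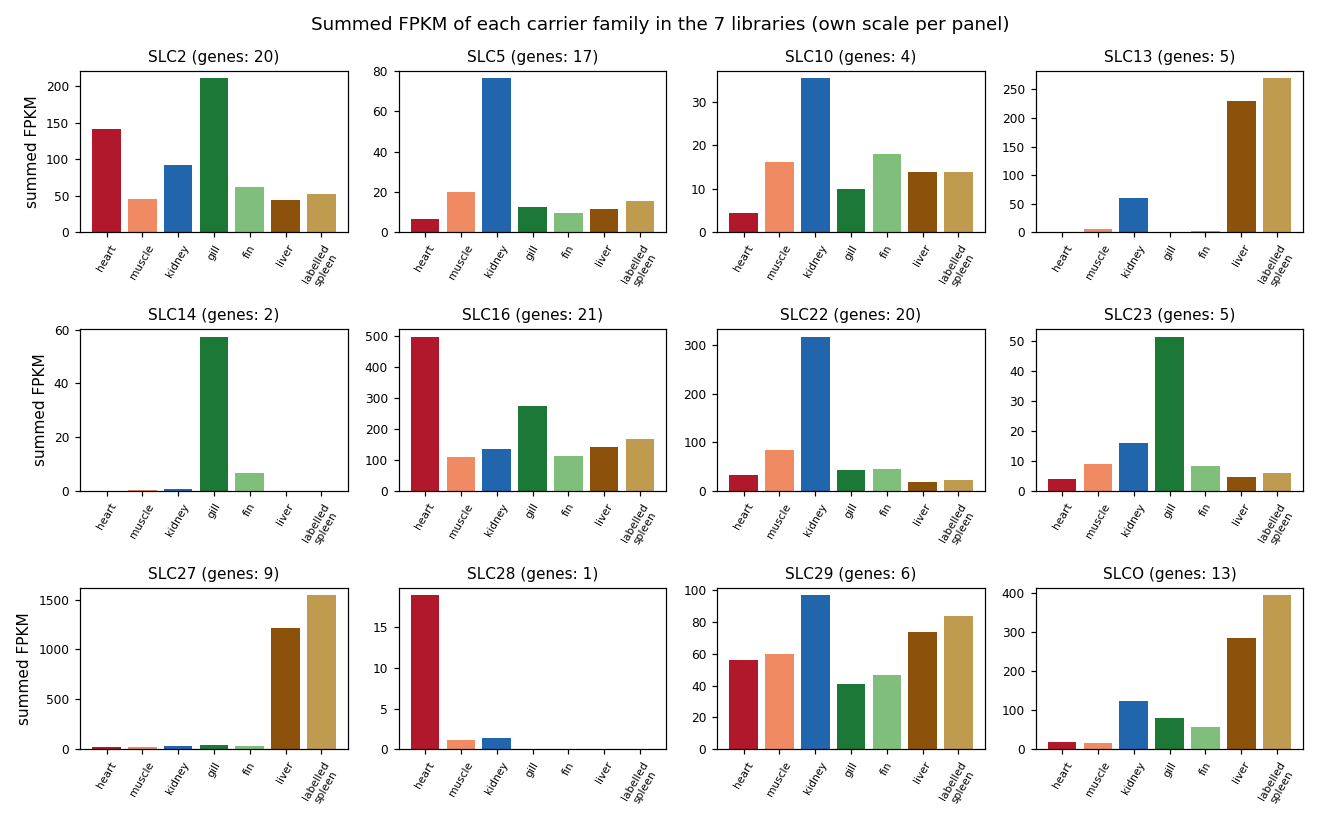
Summed FPKM over all genes of each of the 12 carrier families in the 7 libraries, 1 bar per library and a separate linear axis per panel. SLC22, SLC5, SLC10 and SLC29 sums were highest in kidney, and SLC16 and SLC28 sums in heart. Those of SLC2, SLC14 and SLC23 were highest in gill, and those of SLC27, SLC13 and SLCO in liver and the library labelled spleen. After scaling, SLC2 was instead highest in heart, and SLC5, SLC10 and SLC29 in liver.

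A carrier was called enriched in a library when its FPKM was at least 10 there and its FPKM + 1 at least 5 times that of the highest of the other 6. Folds are on this FPKM + 1 scale throughout. By this rule 16 of the 106 were enriched in some library (15.1%, against 4.93% of all detected genes). Kidney had 10 of them (9.43%, against 0.331%), gill 3 (2.83%, against 1.4%), heart 2 (1.89%, against 1.56%) and fin 1 (0.943%, against 1.2%). Muscle, liver and the library labelled spleen had 0, where the backgrounds were 0.402%, 0.00946% and 0.0378%. Leaving out muscle gave kidney 11 (background 3.08%) and heart 2 (2.08%), and leaving out kidney gave muscle 1 (5.47%). Leaving out fin gave gill 6 (4.25%), and leaving out gill gave fin 2 (3.83%). The share in kidney was well above its background, and the shares in heart and fin were near theirs. After scaling, 6 carriers were enriched in kidney (background 0.151%), all of them among the 10. The rest of the 10, slc5a8 (Pjo07014), SLC13A3 (Pjo08986), SLC10A2 (Pjo10052) and Slc2a9 (Pjo11150), then no longer passed the rule. Of these, SLC10A2 and Slc2a9 kept a 5-fold difference but fell below 10 in kidney.

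**Figure D3:**
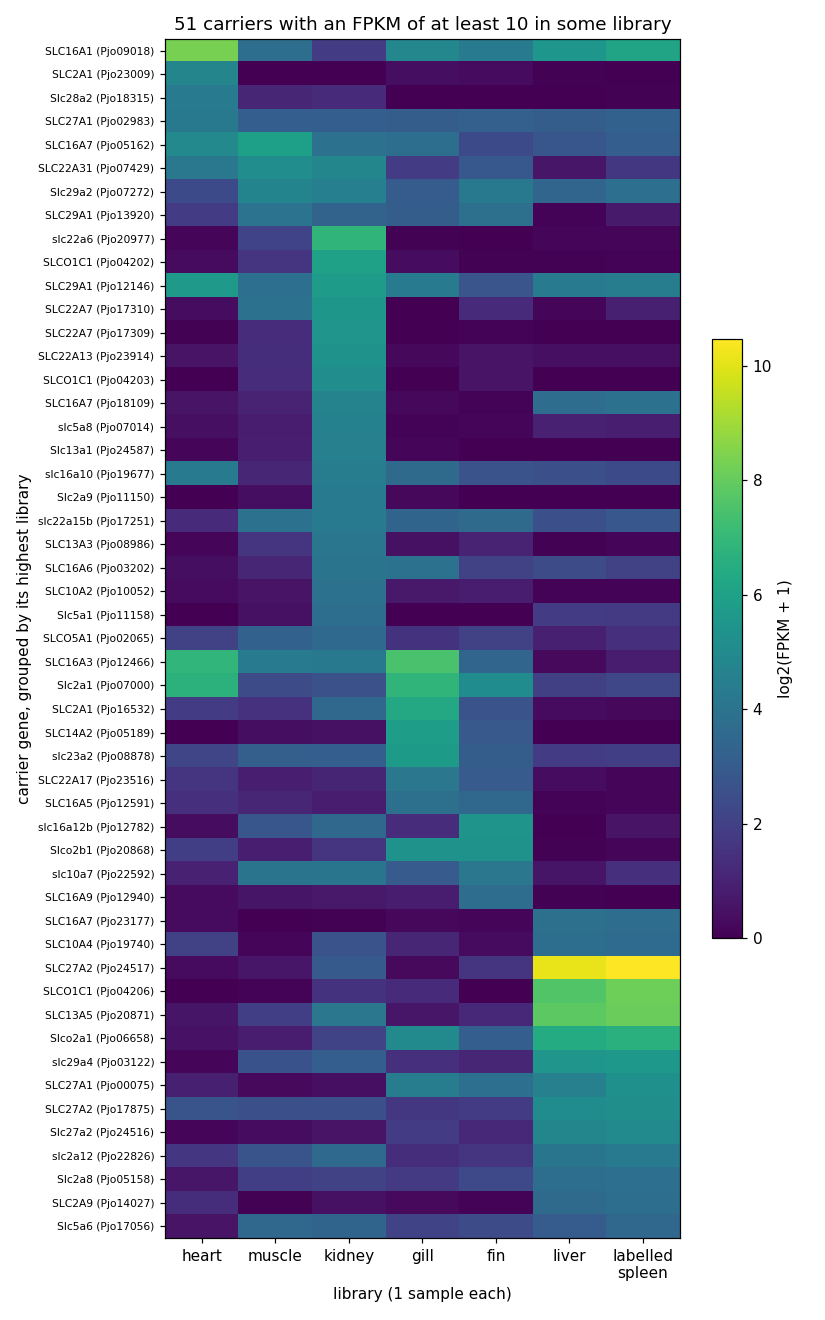
log2(FPKM + 1) of 51 of the 52 carriers that reached an FPKM of 10, 1 row per gene and 1 column per library, with genes grouped by their highest library. Before scaling, the rows grouped under kidney are dark in gill, fin and liver for most genes, while the rows at the foot are bright in both liver and the library labelled spleen.

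The hexose carriers (SLC2) were led by copies of SLC2A1, which encodes the glucose carrier GLUT1 of most vertebrate tissues. The copy Pjo07000 was 115 FPKM in gill, 104 in heart and 33.1 in fin, then 5.02 in kidney, 4.43 in muscle and 2.94 in liver, with 3.67 in the library labelled spleen. It stood far higher in gill and heart than in both the muscle and the liver libraries. After scaling, heart was the higher of the leading pair, at 129 against 72.1 in gill. A further copy, Pjo16532, was 79.03 FPKM in gill, 10.7 in kidney and 5.43 in fin, then 2.56 in heart, 1.8 in muscle and 0.25 in liver, with 0.17 in the library labelled spleen, which made it gill-enriched at 6.85-fold over kidney. The deposited table assigns that copy to SLC2A3 in its KEGG orthology column, so its subtype is uncertain. A smaller copy, Pjo23009, was 26.3 FPKM in heart, 0.31 in gill and 0.25 in fin, then 0.03 in liver, 0.02 in muscle and 0.01 in kidney, while it was listed at 0 in the library labelled spleen. It was heart-enriched, at 20.9-fold over gill. The insulin-responsive carrier gene SLC2A4 (Pjo07495, GLUT4 in mammals) was 4.72 FPKM in muscle, 2.55 in kidney and 0.48 in gill, then 0.27 in fin, 0.09 in heart and 0.05 in liver, with 0.2 in the library labelled spleen. It was low in heart, where the SLC2A1 copies Pjo07000 and Pjo23009 were high. SLC2A9 encodes a urate and hexose carrier in mammals, and its copy Slc2a9 (Pjo11150) was kidney-enriched. That copy was 18.4 FPKM in kidney, 0.32 in muscle and 0.18 in gill, then 0.02 in heart, while it was listed at 0 in fin, liver and the library labelled spleen, and the table's orthology column places it with SLC2A11. Another copy, SLC2A9 (Pjo14027), was 12.9 in the sample labelled spleen, 11.2 in liver and at most 1.57 elsewhere. slc2a12 (Pjo22826) was 15.9 FPKM in liver, 11.01 in kidney and 5.69 in muscle, then 2.18 in heart, 2.04 in fin and 1.58 in gill, with 19.8 in the library labelled spleen and Slc2a8 (Pjo05158) 13.1 in the sample labelled spleen, 12.6 in liver and at most 3.96 elsewhere, so both were highest in the liver pair of libraries, that is, liver and the library labelled spleen. The other 12 SLC2 genes stayed at or below 9.27 in every library, and 3 of the 20 never reached 1.

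Sodium-coupled carriers (SLC5) were mostly highest in kidney before scaling, as were 8 of the 11 detected genes, against 17% of all detected genes. After scaling some of the 8 were higher in liver, as given below, and the family sum was highest in liver. Before scaling their summed FPKM was 76.3 in kidney, 20.00 in muscle and 6.79 to 15.3 in the rest. slc5a8 (Pjo07014), for a carrier of lactate and other short monocarboxylates, was 23.6 FPKM in kidney, 0.95 in liver and 0.78 in muscle, then 0.36 in heart, 0.09 in fin and 0.06 in gill, with 0.83 in the library labelled spleen. It was kidney-enriched, at 12.6-fold over liver. Scaled values were 11.1 in kidney and 3.43 in liver, which is under the 5-fold rule. The intestinal and renal glucose carrier gene Slc5a1 (Pjo11158) was 12.7 FPKM in kidney, 2.58 in liver and 0.38 in muscle, then 0.02 in heart, with 2.39 in the library labelled spleen, while it was listed at 0 in gill and fin. At 3.82-fold over liver it missed the 5-fold rule, and after scaling liver was higher, at 9.32 against 5.94 in kidney. The renal glucose carrier Slc5a2 (Pjo15108), the inositol carrier SLC5A11 (Pjo03739), the lactate carrier slc5a12 (Pjo24348) and slc5a9 (Pjo09289) were 3.85, 6.33, 3.76 and 5.16 in kidney. None of these 4 exceeded 0.77 in any other library, and after scaling slc5a9 was higher in liver, at 2.78 against 2.42 in kidney. The vitamin carrier gene Slc5a6 (Pjo17056), for biotin and pantothenate, had a different pattern: it was 10.2 FPKM in muscle, 9.35 in kidney and 7.18 in liver, then 4.41 in fin, 3.47 in gill and 0.45 in heart, with 10.8 in the library labelled spleen. This copy was lowest in heart. Another Slc5a6 copy (Pjo20308) was instead highest in heart before and after scaling, at 3.47 after scaling and at most 1.15 elsewhere. 6 of the 17 SLC5 genes never reached 1, including the thyroid iodide carrier SLC5A5 and both copies of the neuronal choline carrier SLC5A7.

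The monocarboxylate carriers (SLC16) were led by SLC16A1 (Pjo09018), which encodes the lactate and pyruvate carrier MCT1. It was 321 FPKM in heart, 44.4 in liver and 27.5 in gill, then 18.2 in fin, 12.95 in muscle and 2.62 in kidney, with 69.1 in the library labelled spleen. Heart stood above every other library, at 4.59-fold over the library labelled spleen. That fold missed the enriched rule, and after scaling heart was at 399 and liver at 161. The kidney library, with the highest summed level of blood markers before scaling, had the lowest level of this gene. Scaling placed 8 of the 11 detected blood markers highest in heart and 0 in kidney. The part of blood RNA in the heart value was not tested. SLC16A3 (Pjo12466), for the lactate exporter MCT4 of glycolytic tissue, was 176 FPKM in gill, 117 in heart and 18.6 in muscle, then 17.7 in kidney, 9.57 in fin and 0.2 in liver, with 0.72 in the library labelled spleen. Gill and heart were both more than 5-fold above the other 5 libraries, a pattern held by 31 of all 21151 genes (0.147%), and after scaling heart was the higher, at 146 against 111 in gill. The genes labelled SLC16A7, for MCT2 in mammals, split by copy. Pjo05162 was 59.3 FPKM in muscle, 29.6 in heart and 14.2 in kidney, then 12.6 in gill, 6.0 in liver and 4.14 in fin, with 7.86 in the library labelled spleen. Pjo18109 was 25.1 FPKM in kidney, 12.5 in liver and 1.07 in muscle, then 0.46 in heart, 0.18 in gill and 0.06 in fin, with 14.1 in the library labelled spleen. Pjo23177 was 13.6 FPKM in liver, 0.23 in heart and 0.16 in gill, then 0.1 in fin, 0.05 in kidney and 0.01 in muscle, with 12.4 in the library labelled spleen. The first was highest in muscle, the second in kidney and the third in the liver pair of libraries. After scaling, the first was 36.8 in heart and 36.7 in muscle, and the second was 45.3 in liver and 11.8 in kidney.

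Carriers of amino acids and creatine in the SLC16 family also differed by tissue. slc16a10 (Pjo19677), for a carrier of aromatic amino acids and thyroid hormone, was 20.02 FPKM in kidney, 19.1 in heart and 11.4 in gill, then 5.45 in fin, 4.97 in liver and 1.18 in muscle, with 4.14 in the library labelled spleen. After scaling it was 23.8 in heart, 17.96 in liver and 9.39 in kidney. slc16a12b (Pjo12782), for a creatine carrier in mammals, was 41.4 FPKM in fin, 10.3 in kidney and 5.97 in muscle, then 1.55 in gill, 0.28 in heart and 0.02 in liver, with 0.45 in the library labelled spleen. Fin was the highest, at 3.77-fold over kidney. SLC16A9 (Pjo12940) was 12.3 FPKM in fin, 0.79 in gill and 0.66 in kidney, then 0.51 in muscle, 0.25 in heart and 0.05 in liver, while it was listed at 0 in the library labelled spleen. This was the fin-enriched carrier, at 7.45-fold over gill, and the other SLC16A9 copy (Pjo17277) was 8.63 in kidney, 4.06 in gill and at most 0.7 elsewhere. Among the 21 SLC16 genes 2 never reached 1, and 9 of the remaining genes stayed at or below 15.3.

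The organic anion and cation carriers (SLC22) held 3 of the 10 kidney-enriched genes. Their sum was 317 in kidney, 83.4 in muscle and 17.6 to 45.9 in the rest. slc22a6 (Pjo20977) encodes the basolateral organic anion exchanger OAT1 of the proximal tubule. It was 116 FPKM in kidney, 3.28 in muscle and 0.14 in liver, then 0.1 in heart, 0.04 in gill and 0.02 in fin, with 0.1 in the library labelled spleen. It was the most abundant carrier of the kidney library, at 27.4-fold over muscle. SLC22A13 (Pjo23914), a carrier of urate and nicotinate in mammals, was 40.4 FPKM in kidney, 1.56 in muscle and 0.46 in fin, then 0.45 in heart, 0.36 in liver and 0.18 in gill, with 0.35 in the library labelled spleen. Genes labelled SLC22A7 (OAT2, an organic anion carrier of liver and kidney in mammals) included 3 with consecutive identifiers. Pjo17309 was 42.9 FPKM in kidney, 1.54 in muscle and 0.06 in fin, then 0.04 in heart and 0.02 in gill, while it was listed at 0 in liver and the library labelled spleen. Pjo17310 was 46.1 FPKM in kidney, 14.1 in muscle and 1.4 in fin, then 0.27 in heart and 0.12 in liver, with 0.92 in the library labelled spleen, while it was listed at 0 in gill. Both were highest in kidney and near or at 0 in liver. Pjo17311 stayed at or below 0.3, and another copy, Pjo11692, was 5.99 in fin and at most 0.07 elsewhere. SLC22A31 (Pjo07429) was 34.4 FPKM in muscle, 26.9 in kidney and 17.5 in heart, then 6.31 in fin, 2.68 in gill and 0.56 in liver, with 2.22 in the library labelled spleen. Its muscle and heart values were about equal after scaling, at 21.3 in muscle and 21.7 in heart. SLC22A17 (Pjo23516), for a lipocalin receptor in mammals, was 16.7 in gill, 7.1 in fin and at most 2.01 elsewhere. The genes labelled Slc22a4, which carry carnitine and ergothioneine in mammals, were low: the higher copy (Pjo20616) was 6.84 in muscle, 5.64 in kidney, 4.26 in fin and at most 0.41 elsewhere.

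Citrate, sulfate and dicarboxylate carriers (SLC13) divided between liver and kidney. SLC13A5 (Pjo20871), for the hepatocyte citrate carrier NaCT, was 229.6 FPKM in liver, 16.8 in kidney and 2.83 in muscle, then 1.3 in fin, 0.55 in gill and 0.53 in heart, with 269 in the library labelled spleen. Liver was 12.98-fold over kidney. Slc13a1 (Pjo24587), for the renal sulfate carrier, was 22.9 FPKM in kidney, 0.84 in muscle and 0.12 in heart, then 0.11 in gill and 0.02 in fin, with 0.01 in the library labelled spleen, while it was listed at 0 in liver. SLC13A3 (Pjo08986), for the basolateral dicarboxylate carrier NaDC3 that supplies the exchange substrate of OAT1, was 16.3 FPKM in kidney, 1.96 in muscle and 1.03 in fin, then 0.38 in gill, 0.1 in heart and 0.03 in liver, with 0.13 in the library labelled spleen. Both were kidney-enriched, at 12.97-fold and 5.85-fold over muscle. SLC13A2 (Pjo20771), for the apical dicarboxylate carrier, was 3.26 in kidney, 0.55 in liver and at most 0.44 elsewhere. After scaling liver was higher for this gene. The other SLC13A5 copy (Pjo15357) never reached 1.

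Of the 4 genes of the bile acid carrier family (SLC10), not all of which carry bile acids, SLC10A2 (Pjo10052) was kidney-enriched. It is named for the apical bile acid carrier of ileum and kidney. It was 14.02 FPKM in kidney, 0.72 in fin and 0.62 in gill, then 0.46 in muscle, 0.23 in heart and 0.07 in liver, with 0.07 in the library labelled spleen, and the table's annotations of it differ: the Swiss-Prot match is the ileal bile acid carrier, while the NR match names a toll-like receptor. Slc10a1 (Pjo20150), the main bile acid uptake gene of mammalian hepatocytes, was 1.05 in gill and at most 0.52 elsewhere. Its level in liver was 0.51, and after scaling liver was the highest, at 1.84 against 0.66 in gill. slc10a7 (Pjo22592), a member of the family with a role in calcium and bone in mammals, was 16.7 FPKM in fin, 15.8 in kidney and 15.5 in muscle, then 7.03 in gill, 0.93 in heart and 0.52 in liver, with 1.72 in the library labelled spleen. SLC10A4 (Pjo19740) was 12.7 in liver, 11.7 in the sample labelled spleen, 5.44 in kidney and at most 3.15 elsewhere.

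The gill library was marked by a urea channel and an ascorbate carrier. SLC14A2 (Pjo05189), labelled as a urea transporter, was 57.2 FPKM in gill, 6.62 in fin and 0.38 in kidney, then 0.31 in muscle and 0.02 in liver, with 0.02 in the library labelled spleen, while it was listed at 0 in heart. Gill was 7.64-fold over fin. slc23a2 (Pjo08878), for the ascorbate carrier SVCT2, was 50.6 FPKM in gill, 8.11 in muscle and 7.65 in kidney, then 7.53 in fin, 3.57 in heart and 2.49 in liver, with 2.89 in the library labelled spleen. It was detected in every library, and gill was 5.67-fold over muscle. After scaling it was 31.8 in gill and 9.0 in liver, which is under the 5-fold rule. The tubular ascorbate carrier SLC23A1 (Pjo18080) was 5.34 in kidney and at most 0.34 elsewhere. Another copy, Slc23a1 (Pjo20958), was 1.93 in the library labelled spleen, 1.87 in kidney, 1.5 in liver and at most 0.62 elsewhere. Scaling made liver the highest library of this other copy, at 5.42.

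Fatty acid carriers (SLC27) had the highest single level of any carrier. SLC27A2 (Pjo24517), for a very long-chain acyl-CoA synthetase of hepatocytes, was 1117 FPKM in liver, 6.9 in kidney and 1.94 in fin, then 0.56 in muscle, 0.22 in heart and 0.21 in gill, with 1424 in the library labelled spleen. Liver was 142-fold over kidney. The copies Pjo17875 and Pjo24516 were 33.6 and 26.8 in liver, with 35.9 and 30.1 in the library labelled spleen, with at most 5.63 elsewhere. All 4 copies were highest in the liver pair of libraries. SLC27A1 (Pjo00075), a fatty acid transport protein of muscle and fat in mammals, was 22.5 FPKM in liver, 20.6 in gill and 13.2 in fin, then 0.91 in heart, 0.33 in kidney and 0.2 in muscle, with 37.8 in the library labelled spleen. A further copy (Pjo02983) was 18.03 FPKM in heart, 8.35 in fin and 7.81 in muscle, then 7.72 in kidney, 7.63 in gill and 7.56 in liver, with 8.41 in the library labelled spleen. It was the most even of the family before scaling, and its highest library after scaling was liver. Slc27a4 and both Slc27a6 copies stayed at or below 5.57. By the enriched rule no fatty acid carrier passed in any library, heart and muscle included. Liver and the library labelled spleen were too alike for either to pass over the other. The SLC27A2 copies Pjo24517, Pjo17875 and Pjo24516 passed in each of them when the other was left out.

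Of the 6 equilibrative nucleoside carrier genes (SLC29) all were detected and 0 were enriched while both liver and the library labelled spleen were counted. SLC29A1 (Pjo12146), for the equilibrative carrier ENT1, was 53.2 FPKM in kidney, 48.3 in heart and 19.5 in gill, then 18.3 in liver, 13.1 in muscle and 5.84 in fin, with 19.95 in the library labelled spleen. Kidney and heart, in that order, were also highest for the summed blood markers. The library labelled spleen, just above gill for this SLC29A1 copy, had the lowest blood marker sum, at 1042. Whether blood RNA adds to the level of this copy was not tested. After scaling, the highest library of this copy was liver, at 66.2 against 60.02 in heart. Slc29a2 (Pjo07272), for ENT2, was 25.3 FPKM in muscle, 22.1 in kidney and 17.9 in fin, then 9.77 in liver, 7.38 in gill and 4.17 in heart, with 13.03 in the library labelled spleen. Its highest library was also liver after scaling. The other SLC29A1 copy (Pjo13920) differed from the first and was highest in muscle before and after scaling. It was 15.1 FPKM in muscle, 13.7 in fin and 9.14 in kidney, then 7.58 in gill and 2.54 in heart. slc29a4 (Pjo03122), for a carrier of monoamines and adenosine, was 43.3 FPKM in liver, 7.75 in kidney and 5.24 in muscle, then 1.65 in gill, 1.21 in fin and 0.1 in heart, with 47.2 in the library labelled spleen. Liver was 5.06-fold over kidney. The single SLC28 gene, Slc28a2 (Pjo18315), for a sodium-coupled purine nucleoside carrier, was 18.9 FPKM in heart, 1.36 in kidney and 1.18 in muscle, then 0.02 in gill and 0.02 in fin, with 0.03 in the library labelled spleen, while it was listed at 0 in liver. It was heart-enriched at 8.44-fold over kidney.

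Among the organic anion transporting polypeptides (SLCO), 7 genes shared the label SLCO1C1, which names a thyroxine carrier of the mammalian brain barrier. Pjo04206 was 196 FPKM in liver, 1.92 in kidney and 1.41 in gill, then 0.07 in muscle and 0.02 in heart, with 289 in the library labelled spleen, while it was listed at 0 in fin. Pjo04202 was 62.2 FPKM in kidney, 2.06 in muscle and 0.28 in gill, then 0.25 in heart, 0.04 in liver and 0.03 in fin, with 0.07 in the library labelled spleen. Pjo04203 was 34.2 FPKM in kidney, 1.52 in muscle and 0.46 in fin, then 0.02 in heart, while it was listed at 0 in gill, liver and the library labelled spleen. The first was 67.4-fold higher in liver than in kidney, and the others were kidney-enriched at 20.7-fold and 13.98-fold over muscle. The identifiers Pjo04202 to Pjo04206 lie close together, but positions are not used here. The other 4 copies stayed at or below 5.43. Slco2a1 (Pjo06658), for the prostaglandin carrier, was 85.9 FPKM in liver, 30.99 in gill and 7.64 in fin, then 3.42 in kidney, 0.75 in muscle and 0.44 in heart, with 99.2 in the library labelled spleen. Slco2b1 (Pjo20868), for a steroid sulfate carrier, was 41.2 FPKM in fin, 40.9 in gill and 2.88 in heart, then 2.07 in kidney, 0.86 in muscle and 0.05 in liver, with 0.11 in the library labelled spleen. Gill and fin were both more than 5-fold above the other 5 libraries, as for 1.69% of all detected genes. These rules for a pair of libraries were chosen after the values were seen. SLCO5A1 (Pjo02065) was 10.8 in kidney, 8.53 in muscle and at most 3.24 elsewhere, and Slco3a1 (Pjo18297) was 5.76 in heart and at most 1.88 elsewhere.

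**Figure D4:**
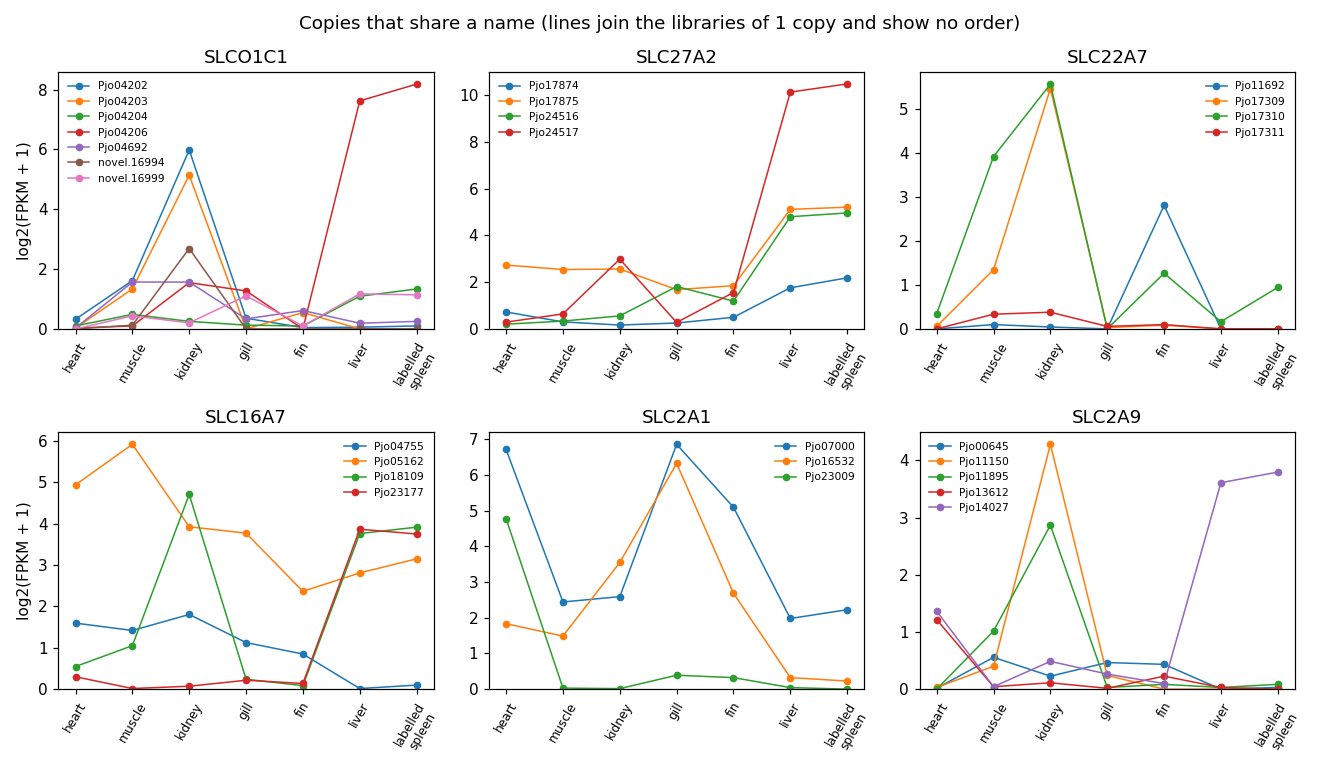
log2(FPKM + 1) in the 7 libraries for copies that share the names SLCO1C1, SLC27A2, SLC22A7, SLC16A7, SLC2A1 and SLC2A9, 1 coloured line per copy; the lines only join the points of a copy. The SLCO1C1 copies above an FPKM of 5 peak in kidney or in the liver pair of libraries, whereas all SLC27A2 copies peak in the library labelled spleen.

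Copies of 1 name often peaked in different tissues, but this was common in the whole table. Among names with at least 2 copies that reached an FPKM of 5, the copies had different highest libraries for 10 of 11 carrier names, against 71.4% of 2059 names overall. Liver and the library labelled spleen were counted as 1 here. The exception was SLC27A2. After scaling the count was 8 of 11, against 68.8% of names overall. Reads shared by near-identical copies may have been divided between them in the estimation, so the values of such copies are uncertain.

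Kidney and muscle were compared because both libraries carried egg markers at high levels. Of 81 carriers that reached 1 in either, 14 were at least 5-fold higher in kidney (background 2.97%) and 0 were at least 5-fold lower (background 1.39%). After scaling these were 8 (background 1.38%) and 0 (background 1.14%). The 14 were the 10 kidney-enriched genes together with SLC16A7 (Pjo18109), Slc5a1 (Pjo11158), slc16a10 (Pjo19677) and SLC16A6 (Pjo03202), at 12.6-fold, 9.90-fold, 9.64-fold and 7.46-fold. Most genes were alike in these libraries: 83.5% of the 8489 genes of at least 10 in either lay within 2-fold, but 10 of 30 carriers did. The median log2 ratio of kidney over muscle was 2.14 for those carriers and -0.08 for all genes. Members close to equal included slc10a7, at 15.8 in kidney and 15.5 in muscle, and Slc29a2, at 22.1 in kidney and 25.3 in muscle. SLC16A7 (Pjo05162) was lower in kidney, at 14.2 against 59.3 in muscle. Muscle was the next library for 8 of the 10 kidney-enriched carriers, at between 0.32 and 3.28 FPKM over all 10, and for 60% of all 70 kidney-enriched genes. The summed tubule markers were 393 in kidney, 358 in gill, 87.4 in muscle, 84.3 in heart and 76.6 in fin. The sum was therefore not particular to kidney. Of the 12 detected markers, 6 were highest in kidney and 2 in muscle, so single markers went both ways. PDZK1 (Pjo09820) was 104 in kidney and 3.5 in muscle, CDH17 (Pjo16358) 49.6 and 3.13, and the LRP2 copy Pjo10367 10.25 and 0.43. Another LRP2 copy (Pjo11343), which made up most of the muscle sum, was instead 42.2 in kidney and 51.4 in muscle. Its order over the 7 libraries was that of the summed egg markers, whose part in it was not tested. The part of tubule RNA in the muscle values was not tested.

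Liver and kidney are both known as sites of organic anion uptake, and different carriers led in each. Of 89 carriers that reached 1 in either, 12 were at least 5-fold higher in liver, against a background of 3.14%, and 17 at least 5-fold lower, against 32.3%. Scaling changed this split to 20 higher (background 11%) and 7 lower (background 6.25%). The largest ratios toward liver were those of SLC27A2 (Pjo24517) and SLCO1C1 (Pjo04206). The lowest ratios were those of slc22a6, SLCO1C1 (Pjo04202) and SLC22A7 (Pjo17309), which were 0.14, 0.04 and 0 in liver and 116, 62.2 and 42.9 in kidney. Of 40 carriers of at least 10 in either library, 2 lay within 2-fold, and for all genes the share was 9.22%.

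**Figure D5:**
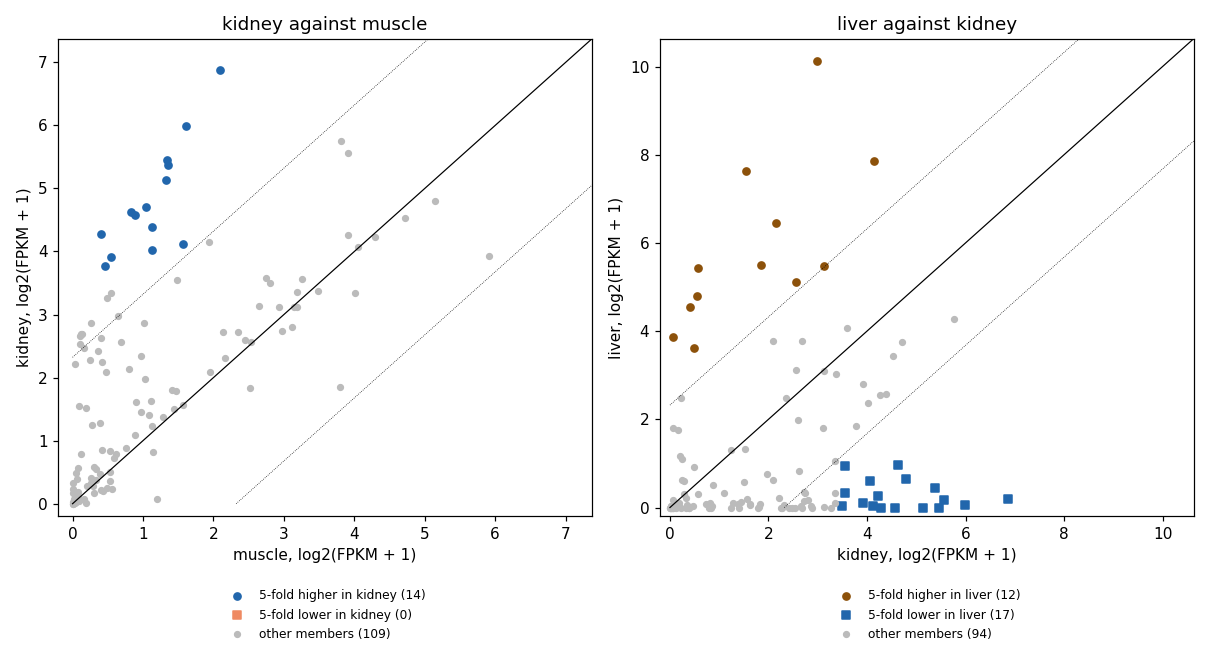
log2(FPKM + 1) of the 123 carriers in kidney against muscle (left) and in liver against kidney (right), 1 point per gene, with the line of equality and dotted 5-fold lines. Points 5-fold higher in kidney than muscle number 14 and points 5-fold lower 0; for liver against kidney they number 12 and 17.

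The library labelled spleen and liver lay close for these genes. In the 19 carriers of at least 10 in either, the log2 ratio of the library labelled spleen over liver ran between -0.12 and 0.72 with a median of 0.19, and all 19 lay within 2-fold, as did 87% of all genes. Since neither library could then pass the enriched rule, each was also set against the rest without the other. Liver then had 8 enriched carriers (7.69%, against 1.74% of all genes) and the library labelled spleen 9 (8.49%, against 1.82%). They included SLC27A2 (3 copies), SLCO1C1 (Pjo04206), SLC13A5, SLC16A7 (Pjo23177) and slc29a4.

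Heart was compared with muscle as the other contractile tissue. Of 65 carriers that reached 1 in either, 6 were at least 5-fold higher in heart (background 5.82%) and 5 at least 5-fold lower (background 19.2%), so the share higher in heart was near the background. After scaling these were 7 (background 9.8%) and 0 (background 10.3%). The 6 were the SLC2A1 copies Pjo23009 and Pjo07000 (but not Pjo16532), SLC16A1, slc16a10, Slc28a2 and SLC16A3, between 6.04-fold and 26.8-fold. The 5 were SLC22A7 (Pjo17310), slc10a7, the Slc5a6 copy Pjo17056, slc22a15b (Pjo17251) and Slc29a2 (Pjo07272), between 5.09-fold and 11.9-fold lower in heart. In kidney, the other library rich in egg markers, these 5 were between 9.35 and 46.1. In gill, where egg markers summed to 39.7, slc22a15b was 9.4, Slc29a2 7.38 and slc10a7 7.03, while SLC22A7 (Pjo17310) was listed at 0. Slc5a6 was 10.8 in the library labelled spleen and 7.18 in liver. The part of egg RNA in these 5 was not tested.

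Gill and fin were compared as surface tissues. Of 64 carriers that reached 1 in either, 4 were at least 5-fold higher in gill (background 3.01%): SLC16A3 at 16.8-fold, SLC2A1 (Pjo16532) at 12.4-fold, SLC14A2 at 7.64-fold and slc23a2 at 6.05-fold. At least 5-fold lower in gill (background 3.43%) were 2: slc16a12b at 16.6-fold and SLC16A9 (Pjo12940) at 7.45-fold. After scaling the counts were 4 (background 2.58%) and 1 (background 2.35%).

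Grouped by role, the kidney tubule list was led by kidney. Of its 28 detected genes 21 were highest in kidney (17% of all genes), and 16 after scaling (3.47%). The summed level of this list was 334 in kidney, against at most 28.4 in any other library. The median difference of these genes between log2(FPKM + 1) in kidney and its mean over the other 6 libraries was 2.19, against 0.63 for all detected genes. Of the 17 detected genes of the hepatocyte uptake list, 6 were highest in the library labelled spleen (4.45% of all genes), 1 in liver (1.5%) and 6 in kidney (17%). After scaling 8 genes of the list were highest in liver (18.8%) and 5 in kidney (3.47%). Its sum of 1384 in liver came mostly from a single SLC27A2 copy, and it was 1792 in the library labelled spleen and 230.1 in kidney. Its median log2 difference in liver was -0.47, against -1.16 for all genes. Of 17 in the muscle fuel list, 4 were highest in heart (9.96% of all genes), 4 in gill (23.2%), 3 in kidney (17%) and 2 in muscle (25.6%). Another 2 were highest in the library labelled spleen (4.45%), with 1 in liver (1.5%) and 1 in fin (18.4%). The counts in gill and kidney were near those shares. After scaling 7 were highest in heart (17.8%), 2 in gill (18%), 1 in kidney (3.47%), 1 in muscle (29.1%) and 5 in liver (18.8%). The sums of this list were 627 in heart, 452 in gill, 175.6 in the library labelled spleen, 126.6 in liver and 126.1 in muscle. Its median log2 difference was -0.38 in heart, against -0.46 for all genes, and -0.20 in muscle, against 0.26. Of 10 thyroid hormone carriers, 4 were highest in the library labelled spleen (4.45% of all genes), 1 in liver (1.5%) and 4 in kidney (17%). After scaling 5 were highest in liver (18.8%) and 3 in kidney (3.47%). Most of these 10 were copies labelled SLCO1C1, which with slc16a10 also stand in the hepatocyte uptake list, so these lists overlap. The prostaglandin carrier gene Slco2a1, at 85.9 in liver, was also among the 10. The sums of this list were 332 in liver, 439.7 in the library labelled spleen and 130.1 in kidney. Its median log2 difference in liver was 0.10, against -1.16 for all genes.

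Genes that work with these carriers were read in the same libraries. In the lactate and pyruvate list 6 of 10 detected genes were highest in heart (9.96% of all genes), and after scaling 4 were highest in heart (17.8%) and 4 in liver (18.8%). The lactate dehydrogenase gene ldhba (Pjo04392) was 1293 in heart and 203 in muscle, and BSG (Pjo21936), for basigin, the chaperone of MCT1 and MCT4, was 501 in heart, 369 in gill and 152 to 278 elsewhere. ldhbb (Pjo25020) was instead 886 in the library labelled spleen, 729 in liver and at most 1.57 elsewhere. In the glucose handling list 4 of 13 genes were highest in gill (23.2% of all genes) and 3 each in heart (9.96%) and the library labelled spleen (4.45%). After scaling these were 4 in heart (17.8%), 4 in liver (18.8%) and 3 in gill (18%). HK1 (Pjo13508), the hexokinase of most tissues, was 319 in heart, 75.9 in gill and at most 12.1 elsewhere, and G6PC1 (Pjo12957), which releases glucose, was 2492 in the library labelled spleen, 1929 in liver and 94.04 in kidney. Among the tubule partners, kidney was the highest library for 5 of 11 genes (17% of all genes), and after scaling liver was for 5 (18.8%) and kidney for 3 (3.47%). The 5 in kidney before scaling included PDZK1, the scaffold of apical carriers.

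The remaining lists were spread over several libraries. After scaling liver was highest for 14 of 20 bile acid genes and 10 of 14 carnitine genes, against 18.8% of all genes. In the bile acid list 7 of 20 genes were highest in the library labelled spleen and 6 in gill (4.45% and 23.2% of all genes). Nr0b2 (Pjo15840), a repressor of bile acid synthesis, was 121 in the sample labelled spleen, 112 in liver and at most 0.82 elsewhere. CYP7A1 (Pjo07459), the rate-limiting enzyme of that synthesis, was 7.0 in kidney, 5.83 in fin and 1.95 in liver, with 3.84 in the library labelled spleen. Scaled values were 7.05 in liver and 3.28 in kidney, with the library labelled spleen above both. Another CYP7A1 copy (Pjo01615) was 4.72 in fin and at most 0.05 elsewhere. In the fatty acid list 6 of 25 genes were highest in muscle (25.6% of all genes), 6 in the library labelled spleen (4.45%) and 4 in gill (23.2%). After scaling 8 were highest in liver (18.8%) and 6 in muscle (29.1%). In the carnitine list 5 of 14 were highest in the library labelled spleen (4.45% of all genes). In the nucleoside salvage list 9 of 22 were highest in muscle (25.6%), where egg markers were also high, and 10 after scaling (29.1%). In the thyroid hormone list 3 of 8 were highest in the library labelled spleen (4.45% of all genes) and 1 in liver (1.5%). After scaling 4 were highest in liver (18.8%). In that list dio3 (Pjo20582), which inactivates thyroid hormone, was 125 in liver and 48.96 in gill. TTR (Pjo19828), for a plasma carrier of the hormone, was 138 in liver, with 165 in the library labelled spleen.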

How the data were processed

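Per the labels' protocols, TRIzol was used for extraction and a Vazyme kit for MGI sequencing libraries. The submitters' processing notes name HISAT2 2.2.1 and RSEM 1.3.3, while build and annotation are not stated there. The values are FPKM as deposited by the authors, 26107 genes by 7 libraries, with 2 decimals and a lowest positive value of 0.01. The table holds no read counts, so depth is unknown and no interval is given. Protein and nucleotide sequences are not used here.

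Members were found by symbol, and copies were kept apart. The table was read with Python 3.11.15, numpy 2.4.6 and pandas 2.3.3, and figures were drawn with matplotlib 3.10.9. Detection was an FPKM of at least 1, and all rules were applied to the whole table. With 1 sample per tissue no statistical test between tissues was run. Folds used a pseudocount of 1. The code of the rules was checked on simulated libraries with set folds and small noise, which cannot show the spread between real samples. Median-of-ratios factors came from 17448 genes above 0 in all libraries. The members, the 4 role, 8 partner and 9 marker lists and the rules were chosen with earlier results of these data known. Named were the most abundant member of each family, enriched members, the 3 most abundant in each library, those of largest ratio in each pair and genes of the lists. Other members named were chosen after their values were seen. Alternatives were another pseudocount, fold limit and minimum, 2 scalings, summed copies and leaving out a library. The values of 1 carrier are not reported here, though the counts include it.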

Additional observations from a re-analysis of the deposited data

How the results depend on the processing

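No paired analysis was possible because each tissue has 1 sample. After median-of-ratios scaling 46 carriers had another highest library, for 22 of them liver in place of the library labelled spleen. Depth is unknown, so low values carry an error that cannot be stated, and the cause of each shift below was not tested unless the setting itself shows it. Without the library labelled spleen, 8 carriers were enriched in liver, and without liver 9 in the library labelled spleen; without fin, 6 were enriched in gill, without gill 2 in fin, and without kidney 1 in muscle. At a 10-fold limit 1 was enriched in heart, 0 in gill and 0 in fin; 3 were higher and 1 lower in heart than muscle, and 2 higher and 1 lower in gill than fin. After median-of-ratios scaling 6 were enriched in kidney and 0 in fin; 26 were highest in kidney, 17 in heart, 35 in liver but 1 in the library labelled spleen; 8 were higher in kidney than muscle, 20 higher and 7 lower in liver than kidney, 0 lower in heart than muscle and 1 lower in gill than fin. The 6 were among the 10 kidney-enriched carriers, and all 10 were still highest in kidney. With equal library sums 9 were highest in liver and 3 lower in heart than muscle. With 1 value per name, copies summed, 1 was enriched in heart and 0 in fin; 3 were highest in heart, 5 in fin, 1 in liver but 14 in the library labelled spleen; 6 were higher in liver than kidney and 1 lower in gill than fin. With a minimum FPKM of 5, 2 were enriched in fin, 6 were highest in heart and 8 in gill, 29 were lower in liver than kidney and 10 lower in heart than muscle. That minimum left 48 detected in kidney, 24 in fin, 22 in liver, 21 each in gill and muscle, 13 in heart, and 25 where the label is spleen. A minimum of 0.1 gave 98 in muscle, 91 in fin, 89 in gill, 66 in liver, 76 in heart, and also 76 where the label is spleen. Of the 16 enriched carriers, the fold over the next library moved for 10 with median-of-ratios scaling and for 10 with a pseudocount of 0.1.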
